A study of Mus musculus with 12 samples.

Results

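The genes described here were 9 members of the transforming growth factor beta (TGF-beta) superfamily and its signaling machinery, namely the ligands *Tgfb1*, *Tgfb2*, *Tgfb3*, *Mstn*, *Inhba*, and *Bmp4*, the antagonist *Fst*, the receptor *Tgfbr1*, and the intracellular inhibitor *Smad7*. They were picked by name from the deposited read counts, which list 55536 mouse genes by Ensembl identifier, and all 9 were found there. A filter on low counts left 14499 genes for testing, among them 8 of the 9; *Mstn* did not pass it and was not tested.

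RNA was sequenced from C2C12GFP cells, a mouse myoblast line that expresses green fluorescent protein and fuses into myotubes in low-serum medium. The cells were cultured on uncoated plates (control) or on plates coated with Collagen I, with fibronectin, or with Geltrex™, a basement membrane matrix of mainly laminin, Collagen IV, and entactin that is sold as reduced in growth factors. Each of the 4 groups had 3 samples, 12 in all, and no treatment other than the coating distinguished them. The day of differentiation at which this RNA was taken is not given in the sources used here, nor is it stated whether replicates came from separate cultures, so p-values measure the spread between these samples only.

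TGF-beta ligands are secreted in a latent form, and once released they bind a type II receptor that recruits the type I receptor encoded by *Tgfbr1*, which phosphorylates SMAD2 and SMAD3. Myostatin (*Mstn*) and activin A, the dimer of the *Inhba* product, use activin type II receptors and the same SMADs, whereas bone morphogenetic proteins such as that of *Bmp4* act mostly through SMAD1, SMAD5, and SMAD9. In skeletal muscle, myostatin restrains muscle mass, TGF-beta ligands and activins hold back myoblast differentiation, follistatin (*Fst*) binds activins and myostatin and blocks them, and SMAD7 is a feedback inhibitor of the receptors.

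The total count per sample lay between 22520404 and 27351766. Replicates of Geltrex™ resembled each other more than those of the other groups, with a chi-square per degree of freedom, where 1 is sampling noise, of 2.18 to 4.54 between pairs of samples compared with 7.71 to 64.6 elsewhere, and no samples were identical. The muscle label was checked against markers, given as the sum of CPM (counts scaled to library size, with TMM factors). The 10 markers of differentiated muscle summed to 7849 to 8712 CPM in the control, 7893 to 8903 on Collagen I, 2069 to 2383 on fibronectin, and 2945 to 3387 on Geltrex™. The 6 markers of proliferating cells summed to 152 to 198, 136 to 141, 508 to 672, and 542 to 593 CPM in the same order. Markers of myoblasts and reserve cells (5 genes) ranged from 216 to 251 CPM over the 12 samples, and those of fibroblasts (6 genes) from 317 to 543 CPM. These sums hide opposite moves of single genes. Between the control and Geltrex™, mean CPM was 126 and 107 for *Myod1*, and 58.3 and 77.7 for *Cd34*. *Ly6a*, at a mean of 271 to 379 CPM by group, made up most of the fibroblast sum. In the control and on Geltrex™, *Lum* was at 90.5 and 19.2 CPM, and *Pdgfra* at 38.3 and 42.9 CPM. Adipocyte, endothelial, and leukocyte markers reached at most 0.388, 0.390, and 1.44 CPM. Of the 6 osteoblast markers, *Runx2* made up nearly all of the 51.9 to 94.4 CPM, while *Sp7*, *Alpl*, *Bglap*, and *Ibsp* had at most 4 counts in any sample.

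On the TPM scale, which divides counts by exon length and by the sum over all genes and so allows genes to be compared, *Tgfb3* was the most abundant of the 9 genes in every group. It stood at 168 ± 8.18 TPM (SD, n = 3) in the control, and *Fst* (78.3 TPM), *Tgfb1* (52.3 TPM), *Bmp4* (40.8 TPM), *Tgfbr1* (37.6 TPM), *Inhba* (25.7 TPM), *Tgfb2* (19.98 TPM), and *Smad7* (8.19 TPM) followed. Every control sample of a gene lay above every sample of the next gene in this order, except that *Bmp4* and *Tgfbr1* overlapped. On Collagen I the order was the same but for *Bmp4* (48.5 TPM) and *Tgfb1* (45.4 TPM), which overlapped each other.

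The order differed on the other coatings. On fibronectin, *Tgfb3* (126 TPM) was followed by *Tgfbr1* (49.0 TPM), *Bmp4* (43.1 TPM), *Tgfb1* (42.6 TPM), *Fst* (37.8 TPM), *Inhba* (30.7 TPM), and *Tgfb2* (25.8 TPM); of these neighbors, only *Tgfb3* and *Tgfbr1*, and *Tgfb1* and *Fst*, did not overlap. On Geltrex™, *Tgfb3* (104 TPM) was followed by *Bmp4* (70.1 TPM), *Tgfbr1* (50.1 TPM), *Fst* (39.2 TPM), *Inhba* (34.0 TPM), and *Tgfb1* (33.1 TPM), with overlap between *Fst* and *Inhba* and between *Inhba* and *Tgfb1*. *Tgfb2* (19.3 TPM) and *Smad7* (18.2 TPM) also overlapped there. With the longest annotated transcript in place of all exons, *Tgfb1* stood at 80.8 TPM in the control and, at 51.4 TPM, above *Fst* (48.8 TPM) and *Tgfbr1* (45.1 TPM) on Geltrex™. That transcript has only 1 exon for *Tgfb1* (2573 bases) and for *Fst* (2921 bases), while all exons span 5042 and 4589 bases. The order of the genes, and the level of the TPM ratios given below, therefore depend on the length used.

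Myostatin was close to undetected. *Mstn* (ENSMUSG00000026100, chromosome 1 of GRCm38, 53061640 to 53068079) had 0 counts in all 3 control and all 3 Collagen I samples, 4, 0, and 0 counts on fibronectin, and 0, 1, and 0 on Geltrex™, or 5 counts among 295737632. The limit that a count of 0 allows, taken as 3 counts, corresponds to 0.110 to 0.133 CPM in these samples and covers counting error only. No difference between coatings was detectable for this gene at this depth.

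**Figure D1:**
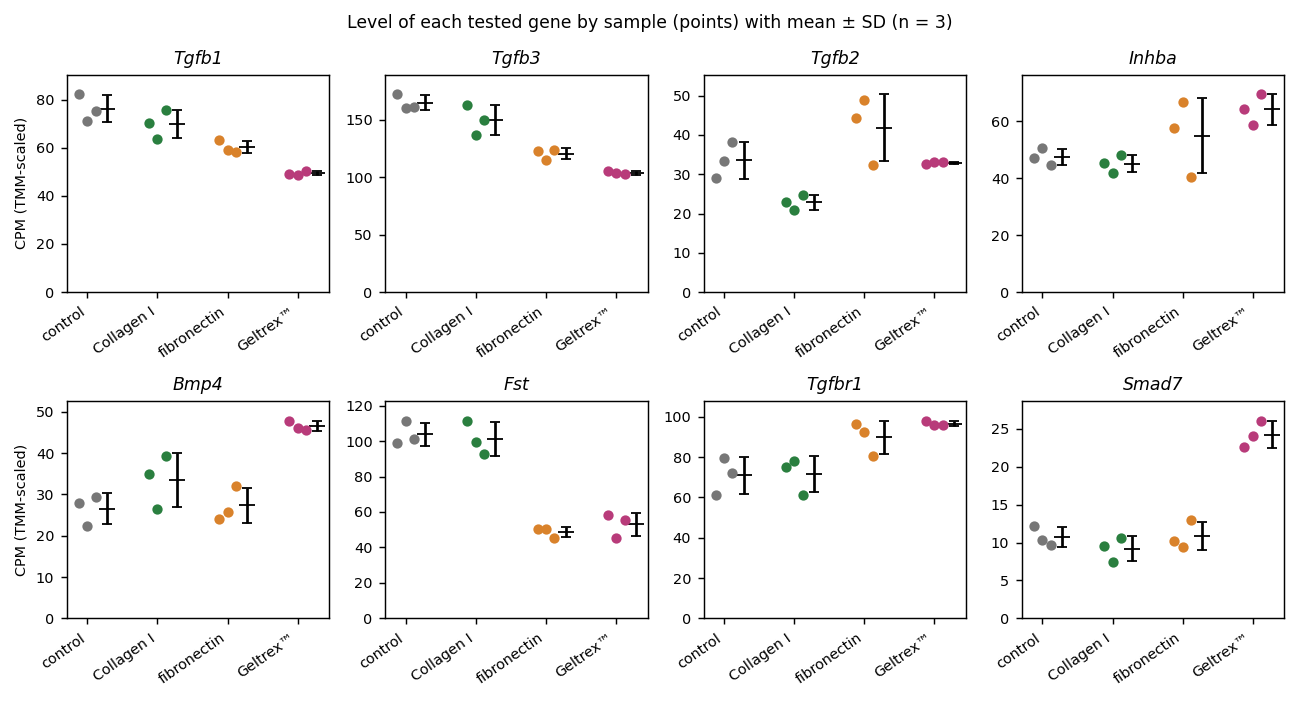
CPM (vertical axes, from 0, scaled by TMM) of the 8 tested genes in the control, Collagen I, fibronectin, and Geltrex™ samples; each point is 1 sample and the bars give the mean ± SD of 3. *Fst* falls into a high pair of groups (control and Collagen I) and a low pair (fibronectin and Geltrex™), while the 3 Geltrex™ samples of *Smad7*, at 22.7 to 26.1 CPM, sit above all other samples.

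The groups were compared with edgeR's quasi-likelihood test in 1 model over all 14499 genes, with Benjamini-Hochberg adjustment, and a gene was called higher or lower at an adjusted p of at most 0.05. A log2 fold change is the group named first over the group named second, and its SE follows it. The model estimates the spread of a gene over all 4 groups, so SE and p also reflect groups outside a comparison. Collagen I against the control had 0 of the 8 called in edgeR, 2 at an unadjusted p under 0.05 (*Tgfb2* and *Bmp4*), and 1 called in DESeq2. Over all 14499 genes tested, 2143 had an unadjusted p under 0.05 in edgeR for this comparison. A missed call does not show that a gene stayed near the control. *Tgfb2* stood at -0.55, with all Collagen I samples below all control samples. Among all genes, 0.2% were called higher and 0.917% lower on Collagen I than in the control. On fibronectin, 1 of the 8 was higher and 3 were lower than in the control, compared with 17.1% higher and 14.7% lower among all genes. On Geltrex™, 4 were higher and 3 lower, compared with 16.4% and 16.6% of all genes, and *Tgfb2* was the gene not called.

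Between the coatings, Collagen I had 3 of the 8 higher (*Tgfb1*, *Tgfb3*, and *Fst*) and 2 lower (*Tgfb2* and *Tgfbr1*) than fibronectin, while 22.1% of all genes were higher and 22.9% lower. Relative to Geltrex™, all 8 tested genes were called, with the same 3 higher on Collagen I and the other 5 lower, and the shares of all genes were 18.2% and 19%. Fibronectin and Geltrex™ differed in 3 genes, *Tgfb1* higher and *Bmp4* and *Smad7* lower on fibronectin, compared with 10.3% and 9.06% of all genes. These comparisons share samples, so their counts are not independent of each other. A fold change of at least 2 was reached by only 1 gene in each comparison except Collagen I against control, which had none. That gene was *Fst* between fibronectin and either the control or Collagen I, and *Smad7* in each comparison with Geltrex™. The share of all genes that reached this minimum was not computed, so these counts are a description only.

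**Figure D2:**
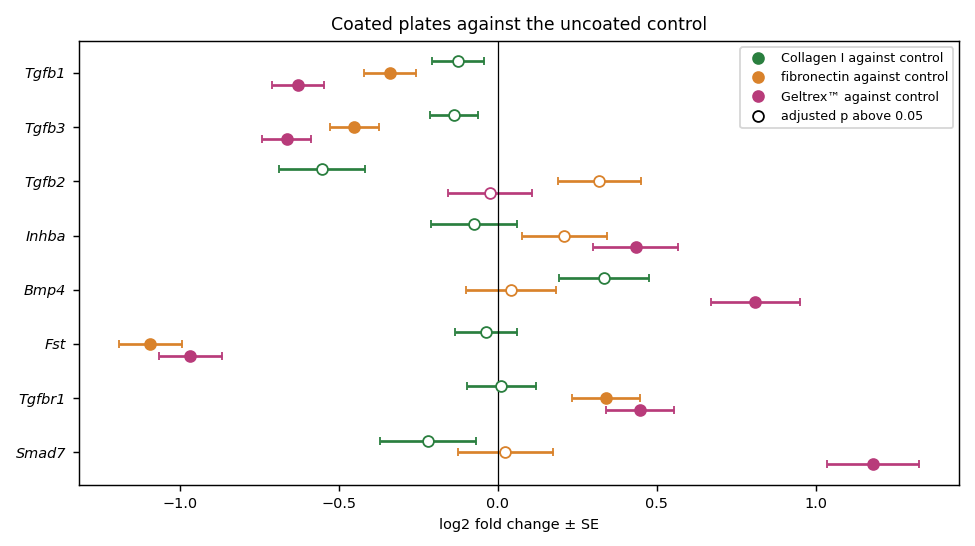
Log2 fold change with its SE (horizontal axis) of the 8 tested genes on each coating over the control; filled points were called at an adjusted p of at most 0.05 and open points were not. All 8 Collagen I points are open, and *Fst* has the lowest values on fibronectin (-1.09) and Geltrex™ (-0.97).

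Among the ligands, *Tgfb1* (ENSMUSG00000002603, chromosome 7, 25687002 to 25705077), the prototype of the family, was counted at 82.2, 71.3, and 75.2 CPM in the control, 70.4, 63.8, and 75.6 on Collagen I, 63.3, 59.2, and 58.4 on fibronectin, and 48.9, 48.8, and 50.3 on Geltrex™. The Geltrex™ samples were below all others, and the fibronectin samples were below all control and Collagen I samples. Relative to the control, *Tgfb1* was lower on Geltrex™, at -0.63 (SE 0.082, adjusted p = 2.29e-05), and on fibronectin, at -0.34 (SE 0.081, adjusted p = 0.00508).

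The value on Collagen I over the control, -0.13 (SE 0.081, adjusted p = 0.48), missed the threshold. It was higher than on Geltrex™ by 0.50 (SE 0.082, adjusted p = 0.000198). The smaller difference between Collagen I and fibronectin, 0.21 (SE 0.081, adjusted p = 0.044), depended on the samples. It did not pass when any fibronectin sample, any Geltrex™ sample, Collagen I replicate 1 or 3, or control replicate 3 was left out (adjusted p = 0.0532 to 0.141), nor without a filter on low counts (0.153), with RLE normalization (0.055), or with only those groups fitted (0.1). Fibronectin exceeded Geltrex™ by 0.29 (SE 0.082, adjusted p = 0.0211), and this call was lost without fibronectin replicate 1 or any Geltrex™ sample (adjusted p = 0.0565 to 0.0936).

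*Tgfb3* (ENSMUSG00000021253, chromosome 12, 86056745 to 86079041) encodes the third TGF-beta isoform and followed *Tgfb1*. It was counted at 172, 160, and 161 CPM in the control, 163, 136, and 150 on Collagen I, 123, 115, and 123 on fibronectin, and 106, 103, and 102 on Geltrex™. Fibronectin and Geltrex™ samples were all below the control and Collagen I samples. Its log2 fold change over the control was -0.45 on fibronectin (SE 0.077, adjusted p = 0.000377) and -0.66 on Geltrex™ (SE 0.077, adjusted p = 7.15e-06), and -0.14 on Collagen I (adjusted p = 0.415). Collagen I was higher by 0.31 than fibronectin (adjusted p = 0.00393) and by 0.53 than Geltrex™ (adjusted p = 7.09e-05). Between fibronectin and Geltrex™, the difference of 0.21 missed the threshold in edgeR (adjusted p = 0.0645) and passed it in DESeq2 (0.0322) and in a fit to those 2 groups alone (0.0281). Of the exon length of *Tgfb3*, 7.60% overlaps one annotated gene on the opposite strand and 4.82% another, and the strand setting of the counting is not stated.

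*Tgfb2* (ENSMUSG00000039239, chromosome 1, 186622792 to 186705989), the second TGF-beta isoform, did not follow the other two. It was counted at 29.0, 33.3, and 38.3 CPM in the control, 23.0, 20.8, and 24.8 on Collagen I, 44.2, 48.9, and 32.3 on fibronectin, and 32.7, 33.0, and 33.1 on Geltrex™. Collagen I samples were the lowest throughout, and fibronectin replicate 3 lay at the control level, apart from the other fibronectin samples. Against fibronectin, *Tgfb2* on Collagen I was lower by -0.87 (SE 0.13, adjusted p = 0.000108) and against Geltrex™ by -0.53 (SE 0.13, adjusted p = 0.00626).

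Against the control, *Tgfb2* on Collagen I stood at -0.55 (SE 0.13, adjusted p = 0.0599), just short of the threshold. It passed in DESeq2 (0.0112), without a filter on low counts (0.00015), and without control replicate 1, fibronectin replicate 2, or fibronectin replicate 3 (0.0145 to 0.038). On fibronectin the value was 0.32 (SE 0.13, adjusted p = 0.076), which became 0.48 (adjusted p = 0.00433) without fibronectin replicate 3 and 0.43 (adjusted p = 0.0361) without control replicate 3, and passed with no filter on low counts (0.0175). Geltrex™ differed from the control by -0.02 (SE 0.13, adjusted p = 0.913). The difference between fibronectin and Geltrex™, 0.34 (adjusted p = 0.0808), passed without fibronectin replicate 3 (0.50, adjusted p = 0.00557) and without a filter on low counts (adjusted p = 0.0173).

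Within a sample, the TPM of *Tgfb2* was 0.385 ± 0.0703 times that of *Tgfb1* (SD, n = 3) in the control and 0.285 ± 0.000568 times on Collagen I. It was 0.603 ± 0.119 times on fibronectin and 0.582 ± 0.00754 times on Geltrex™. Every sample of the last 2 groups, at 0.482 or more, lay above every control and Collagen I sample, at 0.443 or less. In the case of Geltrex™, *Tgfb2* was near the control (log2 fold change -0.02) and *Tgfb1* was lower (-0.63).

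The 250 bases upstream of the annotated start are shown for the paralogs *Tgfb1* and *Tgfb2*, which moved differently, and for *Mstn*, which was nearly uncounted. They are from RefSeq on GRCm38.p6, at chr7:25686752-25687001 on the plus strand, chr1:186705990-186706239 on the minus strand, and chr1:53061390-53061639 on the plus strand, written 5′ to 3′ in the direction of the gene. Capitals mark the letters CAGAC, the core of a SMAD-binding element, searched on both strands.
Tgfb1: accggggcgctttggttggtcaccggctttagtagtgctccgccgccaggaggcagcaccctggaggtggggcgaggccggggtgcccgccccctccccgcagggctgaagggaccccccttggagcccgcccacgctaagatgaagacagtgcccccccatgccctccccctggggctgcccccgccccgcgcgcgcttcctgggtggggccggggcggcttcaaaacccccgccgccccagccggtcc
Tgfb2: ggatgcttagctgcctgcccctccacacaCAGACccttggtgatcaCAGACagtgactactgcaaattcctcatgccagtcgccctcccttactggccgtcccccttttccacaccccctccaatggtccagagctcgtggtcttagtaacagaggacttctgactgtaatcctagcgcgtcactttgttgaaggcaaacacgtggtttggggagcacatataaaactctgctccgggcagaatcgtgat
Mstn: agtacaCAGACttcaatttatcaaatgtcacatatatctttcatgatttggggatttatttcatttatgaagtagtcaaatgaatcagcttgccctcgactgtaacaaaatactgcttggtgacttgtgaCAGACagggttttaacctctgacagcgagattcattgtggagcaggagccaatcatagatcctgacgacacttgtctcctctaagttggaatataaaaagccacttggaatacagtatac

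The stretch of *Tgfb1* was 75.2% G and C and held no CAGAC, no E-box (CANNTG, the site class of myogenic factors), and no TATAAA. That of *Tgfb2* was 53.6% G and C, with 2 matches to CAGAC, 1 E-box, and 1 TATAAA, and that of *Mstn* was 38.4% G and C, with 2, 4, and 1. Of the 9 genes, 6 were matched by symbol to the RefSeq table. Over all 32851 upstream stretches of this length, 42.2% held CAGAC on either strand, 66.2% an E-box, and 12.4% TATAAA on either strand. A match is a description of these letters and was not related to any difference in expression.

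*Inhba* (ENSMUSG00000041324, chromosome 13, 16011851 to 16031621) encodes the activin beta A subunit. It was counted at 47.1, 50.6, and 44.8 CPM in the control, 45.2, 42.0, and 48.3 on Collagen I, 57.6, 66.6, and 40.5 on fibronectin, and 64.3, 58.8, and 69.4 on Geltrex™. The Geltrex™ samples lay above all control and Collagen I samples, whereas fibronectin replicate 3 was the lowest of all 12 and the other fibronectin samples, at 57.6 and 66.6 CPM, lay above all control and Collagen I samples. *Inhba* was higher on Geltrex™ than in the control by 0.43 (SE 0.13, adjusted p = 0.0212) and lower on Collagen I than on Geltrex™ by -0.51 (SE 0.13, adjusted p = 0.0081). The difference from the control did not pass without Geltrex™ replicate 1 or 3 or control replicate 1 or 3 (adjusted p = 0.0524 to 0.0891). On fibronectin, the log2 fold change over the control was 0.21 (SE 0.13, adjusted p = 0.256), and 0.39 (adjusted p = 0.00786) without fibronectin replicate 3. Collagen I against fibronectin likewise went from -0.28 (adjusted p = 0.0996) to -0.47 (adjusted p = 0.00181) without that sample, and it also passed without a filter on low counts (adjusted p = 0.0227).

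*Bmp4* (ENSMUSG00000021835, chromosome 14, 46383520 to 46390669) is the bone morphogenetic protein of the group and was raised on Geltrex™. It was counted at 27.9, 22.5, and 29.4 CPM in the control, 34.8, 26.5, and 39.3 on Collagen I, 24.0, 25.9, and 32.2 on fibronectin, and 47.9, 46.0, and 45.7 on Geltrex™. The Geltrex™ samples were above all others, and the other groups overlapped. *Bmp4* was higher on Geltrex™ than in the control by 0.81 (SE 0.14, adjusted p = 0.000333), lower on fibronectin than on Geltrex™ by -0.77 (SE 0.14, adjusted p = 0.00106), and lower on Collagen I than on Geltrex™ by -0.47 (SE 0.14, adjusted p = 0.0139). The last of these did not pass without Collagen I replicate 2 (adjusted p = 0.0581). Collagen I differed from the control by 0.33 (SE 0.14, adjusted p = 0.286) and fibronectin by 0.04 (SE 0.14, adjusted p = 0.852). Collagen I against fibronectin, 0.29 (adjusted p = 0.101), passed without Collagen I replicate 2 (0.44, adjusted p = 0.0141), without fibronectin replicate 3 (0.42, adjusted p = 0.0276), and without a filter on low counts (adjusted p = 0.0417).

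*Fst* (ENSMUSG00000021765, chromosome 13, 114452290 to 114458951), the secreted antagonist of activins and myostatin, had the largest difference between fibronectin and the control among the 8 tested genes. It was counted at 98.8, 111, and 101 CPM in the control, 112, 99.3, and 92.7 on Collagen I, 50.4, 50.3, and 45.3 on fibronectin, and 58.0, 45.6, and 55.6 on Geltrex™. Every fibronectin and Geltrex™ sample was below every control and Collagen I sample. Relative to the control, *Fst* was lower on fibronectin by -1.09 on the log2 scale (SE 0.10, adjusted p = 8.18e-07) and on Geltrex™ by -0.97 (SE 0.10, adjusted p = 2.08e-06). Collagen I exceeded fibronectin by 1.06 (SE 0.10, adjusted p = 8.84e-07) and Geltrex™ by 0.93 (SE 0.10, adjusted p = 2.92e-06). Collagen I and the control differed by -0.04 (SE 0.098, adjusted p = 0.89), and fibronectin and Geltrex™ by -0.13 (SE 0.10, adjusted p = 0.407).

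The sums of the differentiated muscle and proliferation markers given above moved with the same groups as *Fst*, the former lower and the latter higher on fibronectin and Geltrex™, and their part in the result was not tested. The CPM of *Tgfb1*, *Tgfb3*, and *Tgfbr1* separated the same groups. For these and the other pathway genes, the part of the markers was not tested either. In bulk RNA, fewer cells of a type and less RNA per cell cannot be told apart. The TPM of *Inhba* relative to that of *Fst* within a sample was 0.329 ± 0.0126 (SD, n = 3) in the control, 0.323 ± 0.0447 on Collagen I, 0.805 ± 0.155 on fibronectin, and 0.872 ± 0.0683 on Geltrex™. The lowest ratio on fibronectin or Geltrex™, 0.643, was above the highest in the control or on Collagen I, 0.374. *Fst* alone separated these groups, whereas *Inhba* on fibronectin was not called against the control (log2 fold change 0.21).

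**Figure D3:**
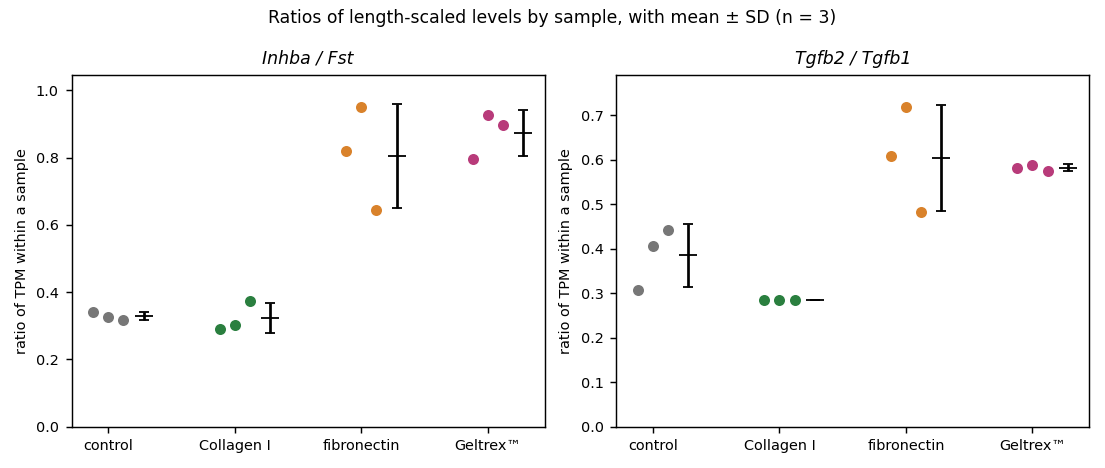
Ratio of TPM within each sample (vertical axes, from 0) of *Inhba* to *Fst* and of *Tgfb2* to *Tgfb1*; each point is 1 sample and the bars give the mean ± SD of 3. In both panels every fibronectin and Geltrex™ sample is above every control and Collagen I sample.

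The receptor gene *Tgfbr1* (ENSMUSG00000007613, chromosome 4, 47353222 to 47414931) was counted at 61.1, 79.5, and 72.2 CPM in the control, 75.0, 78.1, and 61.3 on Collagen I, 96.3, 92.6, and 80.6 on fibronectin, and 98.2, 96.1, and 95.9 on Geltrex™. All samples of the last 2 groups were above all samples of the first 2. *Tgfbr1* was higher than in the control on Geltrex™ by 0.45 (SE 0.11, adjusted p = 0.00449) and on fibronectin by 0.34 (SE 0.11, adjusted p = 0.024). Collagen I was lower than Geltrex™ by -0.44 (adjusted p = 0.005) and lower than fibronectin by -0.33 (adjusted p = 0.0205), and stood at 0.01 over the control (SE 0.11, adjusted p = 0.975). Among the fits that left out a sample, only the 2 differences that involve fibronectin lost their call. The one with the control did not pass without control replicate 1 or fibronectin replicate 1 or 2 (adjusted p = 0.0708 to 0.124) or with only those groups fitted (0.0523), and the one with Collagen I did not pass without Collagen I replicate 3 or fibronectin replicate 1 or 2 (adjusted p = 0.0605 to 0.1).

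*Smad7* (ENSMUSG00000025880, chromosome 18, 75367529 to 75395935), the inhibitory SMAD that is itself induced by TGF-beta and BMP signals, was raised on Geltrex™ in every comparison. It was counted at 12.2, 10.3, and 9.64 CPM in the control, 9.62, 7.39, and 10.7 on Collagen I, 10.2, 9.42, and 13.0 on fibronectin, and 22.7, 24.0, and 26.1 on Geltrex™. The highest sample outside Geltrex™, at 13.0 CPM, was well below the lowest Geltrex™ sample. *Smad7* was higher on Geltrex™ than in the control by 1.18 (SE 0.15, adjusted p = 1.30e-05), lower on Collagen I than on Geltrex™ by -1.40 (SE 0.15, adjusted p = 2.45e-06), and lower on fibronectin than on Geltrex™ by -1.16 (SE 0.14, adjusted p = 3.85e-05). The control, Collagen I, and fibronectin overlapped, with log2 fold changes of -0.22 for Collagen I over the control (SE 0.15, adjusted p = 0.51), 0.02 for fibronectin over the control (SE 0.15, adjusted p = 0.925), and -0.24 for Collagen I over fibronectin (SE 0.15, adjusted p = 0.202).

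Across the 12 samples, the genes differed in which others they tracked, as Pearson's r of log2 CPM; the samples fall into 4 groups, so these values describe the group pattern and carry no p. *Tgfb1* and *Tgfb3* had r = 0.960, *Tgfb3* and *Fst* 0.878, and *Bmp4* and *Smad7* 0.811, while *Tgfb1* and *Tgfbr1* had r = -0.877. Among 12320 genes with a mean of at least 1 CPM, those most like *Fst* were *Klhl31* and *Trim55* (r = 0.995 and 0.993). *Col1a1* and *Ebp* were the nearest genes to both *Tgfb1* (0.978 and 0.967) and *Tgfb3* (0.979 and 0.974). The nearest to *Tgfb2* were *Ski* and *Nop58* (0.955 and 0.951), and to *Inhba* *Arhgef7* and *Gon4l* (0.907 and 0.890). Those nearest to *Bmp4* were *Tslp* and *Rpl10a* (0.967 and 0.939), to *Tgfbr1* *Spg11* and *Amot* (0.982 and 0.981), and to *Smad7* *Arid5a* and *Dusp5* (0.983 and 0.980).

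The rest of the pathway was followed in 89 further genes, of which 67 passed the filter on low counts; 8 of the 9 other BMP ligands did not. Collagen I had 1 of the 67 higher and 5 lower than the control. Fibronectin had 22 higher and 12 lower than the control, with a median log2 fold change of 0.18 compared with -0.02 over all genes tested. Geltrex™ had 19 higher and 15 lower, with a median of 0.0034 compared with -0.01. Collagen I had 8 higher and 29 lower than fibronectin (median -0.28, compared with 0.02) and 10 higher and 25 lower than Geltrex™ (median -0.23, compared with 0.03). Fibronectin had 17 higher and 10 lower than Geltrex™ (median 0.07, compared with -0.0049). The shares of all genes called in each direction are those given for the 8 genes above.

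Of the 6 SMAD transducers, 4 were called higher for fibronectin over the control and 5 for Geltrex™ over the control, and the median log2 fold change of the 6 was 0.44 on fibronectin, 0.30 on Geltrex™, and -0.07 on Collagen I. *Smad9*, which carries BMP signals, was the member not called on Geltrex™ (-0.01, adjusted p = 0.976). The Geltrex™ count fell to 2 without control replicate 1 or Geltrex™ replicate 3 and to 3 without Geltrex™ replicate 1. *Smad3* and *Smad5* were called in all 12 fits that left out a sample, whereas *Smad4* (0.29, adjusted p = 0.0496) was lost in 8, *Smad1* in 4, and *Smad2* in 2; these SMADs were named after their values were seen. On fibronectin the count was 3 or 4 in these fits, *Smad9* being lost without control replicate 1 or fibronectin replicate 1 or 2. For the SMADs above and the receptors and antagonists below, the shares of all genes on fibronectin were 17.1% higher and 14.7% lower than in the control. On Geltrex™ these shares were 16.4% and 16.6%. Of 12 tested receptors and co-receptors, 4 were higher and 1 lower on fibronectin, and 3 higher and 1 lower on Geltrex™. Their lower gene was *Rgmb*, a BMP co-receptor, at 224 ± 11.1 CPM (SD, n = 3) in the control, 304 ± 40.2 on Collagen I, 106 ± 9.61 on fibronectin, and 153 ± 4.46 on Geltrex™. It was lower on fibronectin than in the control by -1.09 (SE 0.097, adjusted p = 6.38e-07) and was the only pathway gene higher on Collagen I than in the control (0.44, SE 0.095, adjusted p = 0.0363). That last call did not pass without any of the control or Geltrex™ samples, Collagen I replicate 2 or 3, or fibronectin replicate 1 (adjusted p = 0.0545 to 0.13). Among extracellular antagonists of the list, which leaves out *Fst*, fibronectin had 3 of 10 higher and 4 lower than the control, and Geltrex™ 1 higher and 3 lower. *Nog*, which encodes the BMP antagonist noggin, was at 2.31 CPM in the control and 1.03 CPM on fibronectin (-1.16, SE 0.22, adjusted p = 0.00101), while *Chrd*, which encodes chordin, exceeded its fibronectin level on Collagen I by 0.76 (SE 0.15, adjusted p = 0.000739).

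Known TGF-beta target genes did not move as a block on Geltrex™. There, 5 of 11 were higher and 3 lower than in the control, compared with 16.4% and 16.6% of all genes. *Ccn2*, connective tissue growth factor, rose from 96.9 CPM in the control to 548 CPM on Geltrex™ (log2 fold change 2.50, SE 0.10, adjusted p = 4.19e-10), although 23.2% of its exons overlap a gene on the opposite strand. In the opposite direction, *Pmepa1*, an inhibitor of TGF-beta signaling that is also a target, was at 526 CPM in the control and 198 CPM on Geltrex™ (-1.41, SE 0.086, adjusted p = 1.09e-08), and *Col1a1*, the alpha 1 chain of type I collagen, at 142 and 62.7 CPM (-1.18, SE 0.12, adjusted p = 2.18e-06). *Col1a2*, the other chain of that collagen, was higher on Geltrex™, at 1064 CPM compared with 819 CPM in the control (0.38, SE 0.089, adjusted p = 0.00399); it lies outside the rule for named genes and was chosen after its values were seen. Against fibronectin too, Geltrex™ had more *Ccn2* (-2.28 for fibronectin over Geltrex™, adjusted p = 8.85e-10) and less *Pmepa1* (1.16, adjusted p = 1.52e-07).

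On fibronectin, 3 of the 11 targets were higher and 3 lower than in the control, compared with 17.1% and 14.7% of all genes. Collagen I had less *Ccn2* than Geltrex™ (-2.38, adjusted p = 4.99e-10), and more *Pmepa1* (0.97, adjusted p = 3.52e-07), *Col1a1* (0.83, adjusted p = 7.17e-05), and *Rgmb* (0.99, adjusted p = 1.03e-06) than Geltrex™. Collagen I also exceeded fibronectin in *Rgmb* and its relative *Rgma* (1.52, adjusted p = 1.50e-08, and 0.39, adjusted p = 0.00166). *Ccn2* and *Col1a1* can respond to signals other than TGF-beta, and no protein was measured in these data.

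**Figure D4:**
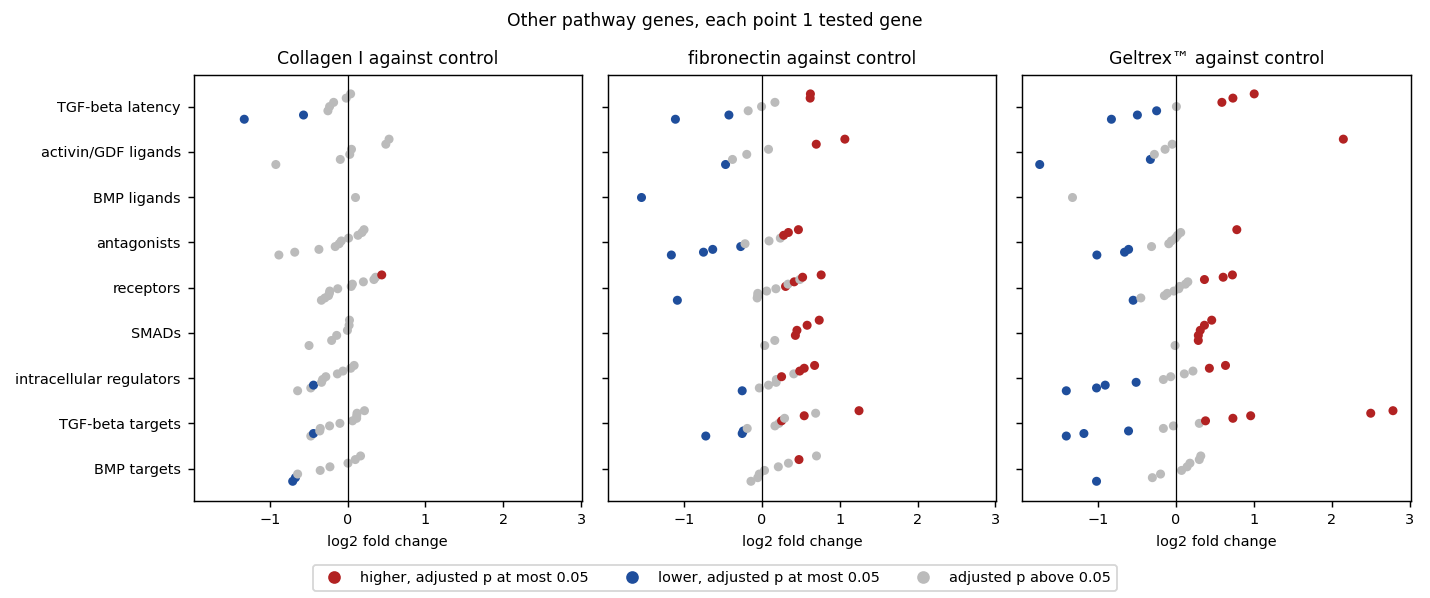
Log2 fold change over the control (horizontal axes) of the tested pathway genes other than the 9, by role (rows), on Collagen I, fibronectin, and Geltrex™; each point is 1 gene, red if called higher, blue if called lower, and gray if not called. The SMAD row holds called points to the right of 0 only on fibronectin and Geltrex™, and the TGF-beta target row on Geltrex™ holds called points on both sides of 0, among them *Pmepa1* (-1.41) and *Ccn2* (2.50).

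Of the 8 BMP target genes, 2 were called lower on Collagen I than in the control (median log2 fold change -0.29), 1 higher on fibronectin (*Id2*, 0.48, adjusted p = 0.00492; median 0.12), and 1 lower on Geltrex™ (*Smad6*, -1.02, SE 0.22, adjusted p = 0.00226; median 0.11). Among all genes, 0.917% were lower on Collagen I, 17.1% higher on fibronectin, and 16.6% lower on Geltrex™ than in the control. The 2 genes on Collagen I were *Id2*, an inhibitor of myogenic bHLH factors, and *Atoh8* (-0.71, SE 0.12, adjusted p = 0.00768, and -0.67, SE 0.15, adjusted p = 0.0489). *Id2* did not pass without Collagen I replicate 2 (-0.63, adjusted p = 0.0573), and *Atoh8* passed only without fibronectin replicate 2 or 3 among the fits that left out a sample (adjusted p = 0.0511 to 0.155 in the other 10). *Smad6*, the inhibitory SMAD of the BMP branch and paralog of *Smad7*, was at 5.01 CPM on fibronectin and 2.52 CPM on Geltrex™ (0.99, SE 0.22, adjusted p = 0.00549), the opposite order to *Smad7*. In the BMP branch, *Smad9* was also lower with Collagen I than with fibronectin (-1.23, SE 0.26, adjusted p = 0.0013).

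Among genes of ligand release and the smaller ligands, several had low counts. *Lrrc32*, which anchors latent TGF-beta at the cell surface, had 3.19 CPM in the control and was lower on Collagen I (1.28 CPM, log2 fold change -1.33, SE 0.24, adjusted p = 0.0123, and 0.0648 without Collagen I replicate 2) and fibronectin (1.47 CPM, -1.11, SE 0.23, adjusted p = 0.00197). It was lower on Geltrex™ too (1.79 CPM, -0.83, SE 0.23, adjusted p = 0.011, and 0.0533 without Geltrex™ replicate 2). *Gdf15*, a stress-induced ligand, was at 1.12 CPM in the control, 2.35 on fibronectin (1.07, SE 0.23, adjusted p = 0.00249), and 4.98 on Geltrex™ (2.15, SE 0.22, adjusted p = 1.92e-06). It was lower than on Geltrex™ both on Collagen I (-1.62, adjusted p = 2.29e-05) and on fibronectin (-1.08, adjusted p = 0.0012). *Tll1*, a protease of the family that cleaves the myostatin propeptide, was higher on fibronectin (3.32 CPM) than on Geltrex™ (0.602 CPM, 2.45, SE 0.28, adjusted p = 1.46e-05) and on Collagen I (1.07 CPM, -1.62 for Collagen I over fibronectin, adjusted p = 0.000135), and lower on Geltrex™ than in the control (-1.75, SE 0.29, adjusted p = 0.000233). *Bmpr1b*, a BMP type I receptor, was higher on fibronectin than in the control by 0.76 (SE 0.13, adjusted p = 0.000379).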

How the data were processed

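The deposited values are raw counts per gene, which the authors made from paired reads by trimming (Trimmomatic), alignment (HISAT2), and counting (featureCounts), with 1 column per sample and no normalization. Genome build, annotation release, and strand setting are not given in the sources used here. All 55536 identifiers were found in GENCODE M21 (GRCm38), which gave names, positions, and exon lengths.

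Genes passing filterByExpr (minimum count 10, minimum total 15) were scaled by TMM and fitted with edgeR 4.0.16 in R 4.3.3 (quasi-likelihood, 4 groups, 8 residual degrees of freedom). SE is the log2 fold change divided by the square root of F. TPM used the union of exons, and log2 CPM a prior count of 2.

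The 9 genes, lists, and tests were chosen with earlier results of these data known. Named pathway genes are the 3 with the highest and the 3 with the lowest values among those called with a mean of at least 1 CPM, per comparison, and the 2 genes most correlated with each tested gene; values of a named gene in further comparisons are given for context. One gene that this rule names is not reported here.

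Alternatives were DESeq2 1.42.0, RLE normalization, other filters, fits to 2 groups, a replicate block, a fold change minimum, summed Geltrex™ samples, and leaving out each sample. On simulated data for fibronectin against control (14499 genes), edgeR recovered 92.5% of 200 genes changed by 1.5 on the log2 scale, with 17 false calls among 202.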

Additional observations from a re-analysis of the deposited data

How the results depend on the processing

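Same-numbered samples did not deviate together in every pair (correlations -0.154 to 0.225), so no pairing was assumed. The replicate block changed no call of the 8 tested genes, and neither did a filter of at least 10 counts in every sample; with the block, 5, 32, 33, 37, 36, and 25 other pathway genes were called against 6, 34, 34, 37, 35, and 27 without it (order of comparisons as in the report). Of the 48 calls or non-calls, DESeq2 changed 2, RLE normalization 1, no filter on low counts 6, fits to 2 groups 3, and summed Geltrex™ samples 9, while no called direction reversed in any alternative. Called genes for Collagen I against control were 0, but 1 (*Tgfb2*) with DESeq2 and with no filter, and 0 to 1 with samples left out. With a fold change of at least 2, 1 gene each remained for fibronectin against control (of 4), Geltrex™ against control (of 7), Collagen I against fibronectin (of 5), Collagen I against Geltrex™ (of 8), and fibronectin against Geltrex™ (of 3). Leaving out samples gave 3 to 6 for Collagen I against fibronectin. With the 3 Geltrex™ samples summed into 1, which leaves that group a single sample, Collagen I against Geltrex™ kept 4 of 8; those calls were *Tgfb1*, *Tgfb3*, *Fst*, and *Smad7*.

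For the other pathway genes, Collagen I against control moved most, from 6 to 13 (DESeq2), 16 (no filter), 1 (only those groups), 2 (summed Geltrex™), 1 (fold change of at least 2), and 0 to 7 with samples left out (0 without Collagen I replicate 2). With the fold change minimum, fibronectin against control fell from 34 to 6, Geltrex™ against control from 34 to 9, Collagen I against fibronectin from 37 to 9, Collagen I against Geltrex™ from 35 to 4, and fibronectin against Geltrex™ from 27 to 6. For these counts too, the share of all genes at that minimum was not computed. Summed Geltrex™ samples gave 19, 17, and 8 against the control, Collagen I, and fibronectin. Collagen I against Geltrex™ ranged from 22 (without Geltrex™ replicate 1) to 35 with samples left out. Apart from the smaller number of samples or the minimum itself, the cause was not tested. *Mstn* and pathway genes near 1 CPM are limited by depth.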

Other observations

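Further genes of the pathway, chosen after their values were seen, showed the following. *Thbs1*, which encodes the latent TGF-beta activator thrombospondin-1, stood at 1613 CPM in the control and was higher on fibronectin (2481 CPM, log2 fold change 0.62, edgeR adjusted p = 0.00184) and on Geltrex™ (3234 CPM, adjusted p = 2.06e-05). On Collagen I it was lower (1090 CPM, -0.57, adjusted p = 0.0444), a call that held only without control replicate 1 or fibronectin replicate 2 or 3 among the 12 fits that left out a sample (adjusted p = 0.0692 to 0.194 in the other 9). *Tgfbr3*, the co-receptor betaglycan, was higher than in the control by 0.72 on Geltrex™ (edgeR adjusted p = 3.19e-06) and 0.42 on fibronectin (adjusted p = 0.000814). *Grem1*, a BMP antagonist, was higher by 0.78 on Geltrex™ (adjusted p = 1.46e-05), where *Dcn*, the TGF-beta-binding proteoglycan decorin, was lower by -0.61 (adjusted p = 0.000149). *Gdf11*, the closest paralog of *Mstn*, was not called in any of the 6 comparisons in edgeR, and its log2 fold change over the control was 0.05 on Collagen I, 0.09 on fibronectin, and -0.05 on Geltrex™.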
